A study of Mus musculus with 8 samples.

Results

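The epidermal differentiation complex is a cluster of genes on mouse chromosome 3 that are switched on as keratinocytes leave the basal layer and build the skin barrier. They were found by name: all Lce, Sprr and S100a genes and 11 single genes (Lor, Ivl, Flg, Flg2, Hrnr, Rptn, Kprp, Crnn, Crct1, Lelp1 and Tchhl1), on rows that the platform annotation gives exactly 1 gene symbol. This gave 56 of 19938 genes, namely 19 Lce, 13 Sprr, 14 S100a, 5 genes of the S100-fused type and 5 other precursors. No row of this kind carried Flg, the filaggrin gene, so it is not described here. S100a11 had 2 rows and the brighter was used.

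The tissue was the whole thickness of the skin, taken from mouse embryos at stage E17.5, and each sample was run on 1 single-colour array. A group of 4 arrays carried RNA of embryos labelled PpargΔ/Δ or PPARgamma null (called Pparg null here), and 4 control arrays carried RNA of embryos labelled PPARgamma wildtype, all on the strain background given as Mixed C57BL6/SV129. The labels name no Cre driver, body region, litter or sex, and nothing says which part of Pparg is missing. Each array held 1 individual RNA, so p-values measure the spread between these RNAs, and full-thickness skin mixes epidermis with follicles, dermis and fat, so that fewer cells of a type and less RNA per cell cannot be told apart.

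The cornified envelope is the protein shell that replaces the membrane of dying keratinocytes. Involucrin (Ivl) is laid down early as a scaffold, loricrin (Lor) makes up much of the finished shell, and the small proline-rich (Sprr) and late cornified envelope (Lce) proteins are joined to them by transglutaminases. S100-fused-type proteins such as hornerin and filaggrin-2 combine a calcium-binding head with long repeats and pack the keratin filaments, and the S100a proteins are small calcium sensors, only some of which belong to the epidermis. PPARgamma is the nuclear receptor that drives fat cell formation, and other members of the PPAR family are known regulators of keratinocyte differentiation.

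Values are log2 units, and every difference is Pparg null minus control. Array medians ran from 6.93 to 6.96 and pairs of arrays correlated at r = 0.989 to 0.994. The Pparg row did not read lower on the Pparg null arrays, with 9.12 ± 0.10 there and 8.94 ± 0.13 in control (SD, n = 4 each, limma adjusted p = 0.9995), so the labels are not checked by it. The PPARgamma target Cd36 read 8.90 ± 0.14 on Pparg null arrays and 9.82 ± 0.09 in control (limma adjusted p = 0.00585). In a principal component analysis, Pparg null array 4 lay far out on component 1 (38.4% of the variance), at 22.78. Control array 1 was next on that side, at 9.62. The remaining 3 Pparg null arrays and 3 control arrays lay between -8.96 and 0.95, so control array 1 was about as far from 0 as the lowest of them. For many differences below, the value without Pparg null array 4, control array 1 or both is given too.

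None of the measured genes of the complex differed between Pparg null and control skin beyond the spread between arrays. Genes had to exceed the 30th percentile of an array's values (5.62 to 5.67) on at least 4 of 8 arrays to be tested, and 41 of the 56 did. Of these, 0 passed a limma adjusted p of 0.05, with 18 of all 15174 tested genes (0.119%) past it, 17 lower (0.112%) and 1 higher (0.00659%) in Pparg null skin. At an unadjusted p under 0.05 the complex again gave 0 of 41, against 548 of all tested genes (3.61%), and 0 of the 41 had groups that did not overlap, against 2.45% of all tested genes (0.784% higher and 1.67% lower in Pparg null skin). The adjusted p of every tested gene of the complex was at least 0.9995. Without Pparg null array 4 and control array 1, 0 of 41 passed too, with a smallest adjusted p of 0.588 and 3 genes, S100a4, Sprr1a and Sprr3, at an unadjusted p under 0.05. In each group the array left out was the highest for Sprr1a and Sprr3 and the lowest for S100a4. This choice of arrays itself narrows the spread of these genes.

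Of the 41 tested genes, 24 lay below control and 17 above, with a median difference of -0.03, against 7638 below and 7536 above (49.7%) and a median of -0.00058 over all tested genes. For 35 of them the difference was at most 0.2 in either direction. The 95% confidence interval lay within ±0.5, or 1.41-fold either way, for 33. The 8 with wider intervals were Sprr1a, Sprr1b, Sprr3, Sprr2d, Rptn, S100a7a, Ivl and Lce1l. For these 8 the arrays leave a change of that size possible, and for the other 33 a missed threshold does not show equal levels.

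**Figure D1:**
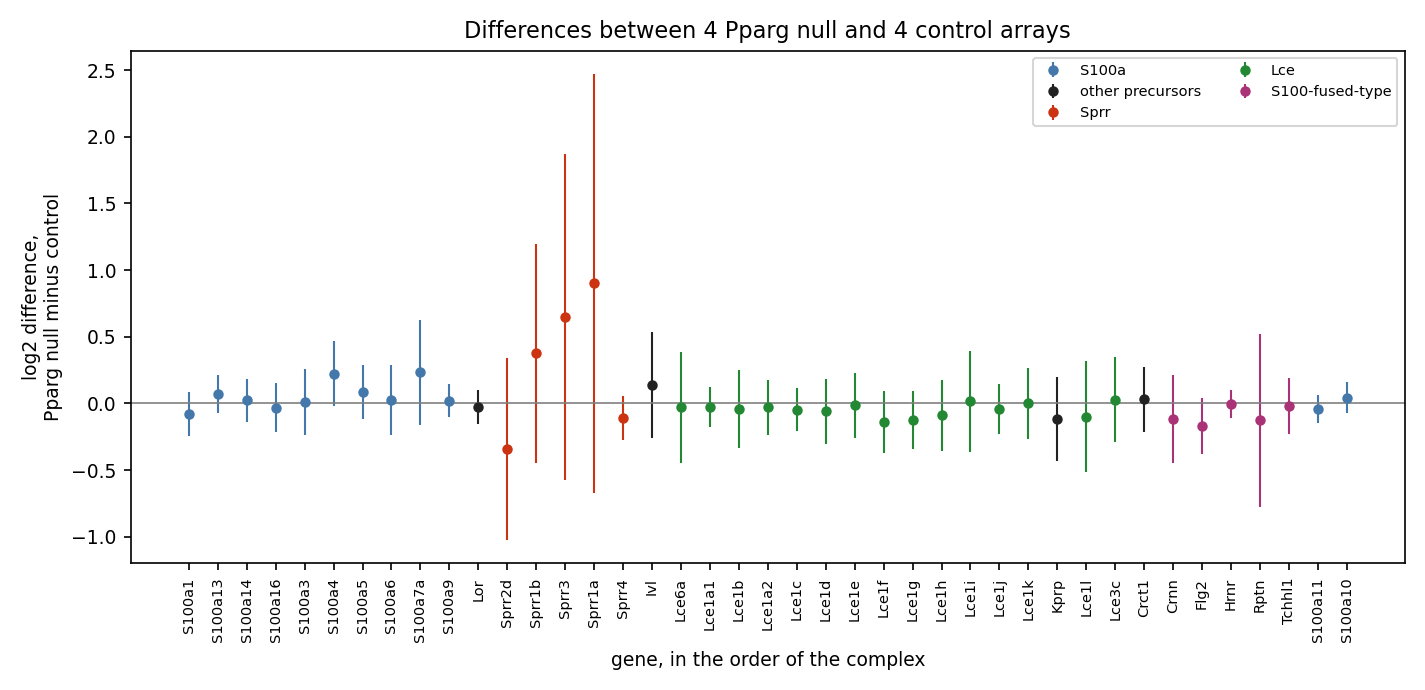
Log2 difference between Pparg null and control arrays (y axis, with the 95% confidence interval of limma as bars) for the 41 tested genes, placed in their order along chromosome 3 and coloured by family. All 41 intervals include 0, and those of Sprr1a, Sprr3, Sprr1b and Sprr2d are the widest.

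Among the single-copy precursors, loricrin and involucrin gave the plainest contrast in spread. Lor, the major envelope protein, read 12.95, 12.97, 12.90 and 13.06 on Pparg null arrays and 12.99, 12.90, 13.04 and 13.07 on control arrays. The groups overlapped almost completely, with a difference of -0.03 (SE 0.06, 95% interval -0.16 to 0.10). Ivl, the early scaffold, read 10.92, 11.23, 11.14 and 11.82 on Pparg null arrays, against 11.15, 10.85, 11.21 and 11.34 on control arrays. Pparg null array 4 was the highest of all 8, and the difference of 0.14 (SE 0.18) became -0.04 without it.

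Kprp, a proline-rich keratinocyte protein, read 11.13, 11.61, 11.38 and 11.89 on Pparg null arrays and 11.62, 11.47, 11.73 and 11.66 on control arrays. The Pparg null values lay on both sides of the control values, with a difference of -0.12 (SE 0.14). Without Pparg null array 4 it was -0.24, at an unadjusted p under 0.05 but an adjusted p of at least 0.9955, and without Pparg null array 1 it was 0.01. Crct1, a cysteine-rich protein encoded within the complex, read 12.01, 12.39, 12.17 and 12.54 on Pparg null arrays and 12.31, 12.12, 12.21 and 12.35 on control arrays, a difference of 0.03 that was -0.06 without Pparg null array 4. Lelp1, a relative of the Lce proteins, was under the brightness filter, at 5.66, 5.46, 5.09 and 5.80 on Pparg null arrays and 5.46, 5.66, 5.36 and 5.45 on control arrays.

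The 5 S100-fused-type genes all lay below control, with differences of -0.17 to -0.004 and a median of -0.12, which was 0.01 without control array 3. Hrnr, which encodes hornerin, was the steadiest gene of the complex, at 13.34, 13.40, 13.34 and 13.44 on Pparg null arrays and 13.42, 13.34, 13.39 and 13.38 on control arrays. Its values ran close to the highest log2 value of any row, 13.89, as did those of Lor; whether signal near that limit narrows differences was not tested. Flg2, which encodes filaggrin-2, read 10.55, 10.90, 10.81 and 10.83 on Pparg null arrays, against 11.02, 10.72, 11.05 and 10.97 on control arrays. It had the smallest unadjusted p of this family (0.104), with a difference of -0.17 (SE 0.09), and all Pparg null values but that of array 1 lay inside the control range.

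Rptn, which encodes the envelope protein repetin, was higher on arrays 3 and 4 than on arrays 1 and 2 of each group. It read 5.85 and 5.93 on Pparg null arrays 1 and 2 but 6.39 and 6.88 on arrays 3 and 4, and 5.998 and 5.85 on control arrays 1 and 2 but 6.98 and 6.72 on arrays 3 and 4. The difference of -0.13 (SE 0.29) turned on single arrays, at -0.33 without Pparg null array 4, 0.07 without control array 3 and -0.46 without Pparg null array 4 and control array 1. Crnn, which encodes cornulin, read 6.18, 6.20, 6.09 and 6.11 on Pparg null arrays and 6.18, 5.92, 6.76 and 6.16 on control arrays, where array 3 was the high one, and its difference of -0.12 became 0.05 without control array 3. Tchhl1, a relative of trichohyalin, read 6.14, 6.15, 6.14 and 6.18 on Pparg null arrays and 6.43, 6.06, 6.25 and 5.95 on control arrays, so that the 4 Pparg null values lay inside the control range.

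The late cornified envelope genes held together. All 13 Lce1 genes and Lce6a were tested, and of the 5 Lce3 genes Lce3c alone was. Of the 15 tested, 12 lay below control and 3 above, between -0.14 and 0.03, with a median of -0.04 that was 0.03 without Pparg null array 1 and -0.11 without Pparg null array 4. Lce1c read 12.58, 12.68, 12.56 and 12.84 on Pparg null arrays and 12.74, 12.59, 12.78 and 12.72 on control arrays, a difference of -0.05 (SE 0.07). The value on Pparg null array 4 was the highest of all 8. Lce1a1 read 12.49, 12.52, 12.38 and 12.68 on Pparg null arrays and 12.52, 12.48, 12.57 and 12.61 on control arrays, a difference of -0.03.

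The Lce1 genes farthest from control were Lce1f and Lce1g. Lce1f read 7.60, 7.79, 7.79 and 7.59 on Pparg null arrays and 7.78, 7.56, 7.93 and 8.05 on control arrays, a difference of -0.14 (SE 0.10, unadjusted p = 0.205). Lce1g read 7.51, 7.66, 7.39 and 7.70 on Pparg null arrays, against 7.71, 7.44, 7.79 and 7.83 on control arrays, a difference of -0.13 (SE 0.10). In both, control array 2 was the lowest of its group, and without it the differences were -0.23 and -0.21, at an unadjusted p under 0.05 but an adjusted p of 0.99991 or more. Lce1h, at 11.27, 11.67, 11.50 and 11.91 on Pparg null arrays and 11.75, 11.53, 11.70 and 11.72 on control arrays, differed by -0.09, by -0.20 without Pparg null array 4 and by 0.02 without Pparg null array 1. Because the Lce1 genes are near copies of each other, their probes may share signal, and their values are not independent of each other.

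Arrays differed for many Lce genes at once. Averaged over the 15 tested Lce genes and set against the mean of 8 arrays, Pparg null arrays read -0.21, 0.04, -0.13 and 0.21, and control arrays 0.06, -0.16, 0.11 and 0.08. Pparg null array 4 was the highest of its group for 12 of the 15, and control array 2 was the lowest of its group for 13. Lce6a went through the widest range, at 10.61, 10.92, 10.75 and 11.56 on Pparg null arrays and 11.14, 10.73, 11.08 and 10.998 on control arrays, with a difference of -0.03 (SE 0.19) that became -0.23 without Pparg null array 4.

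**Figure D2:**
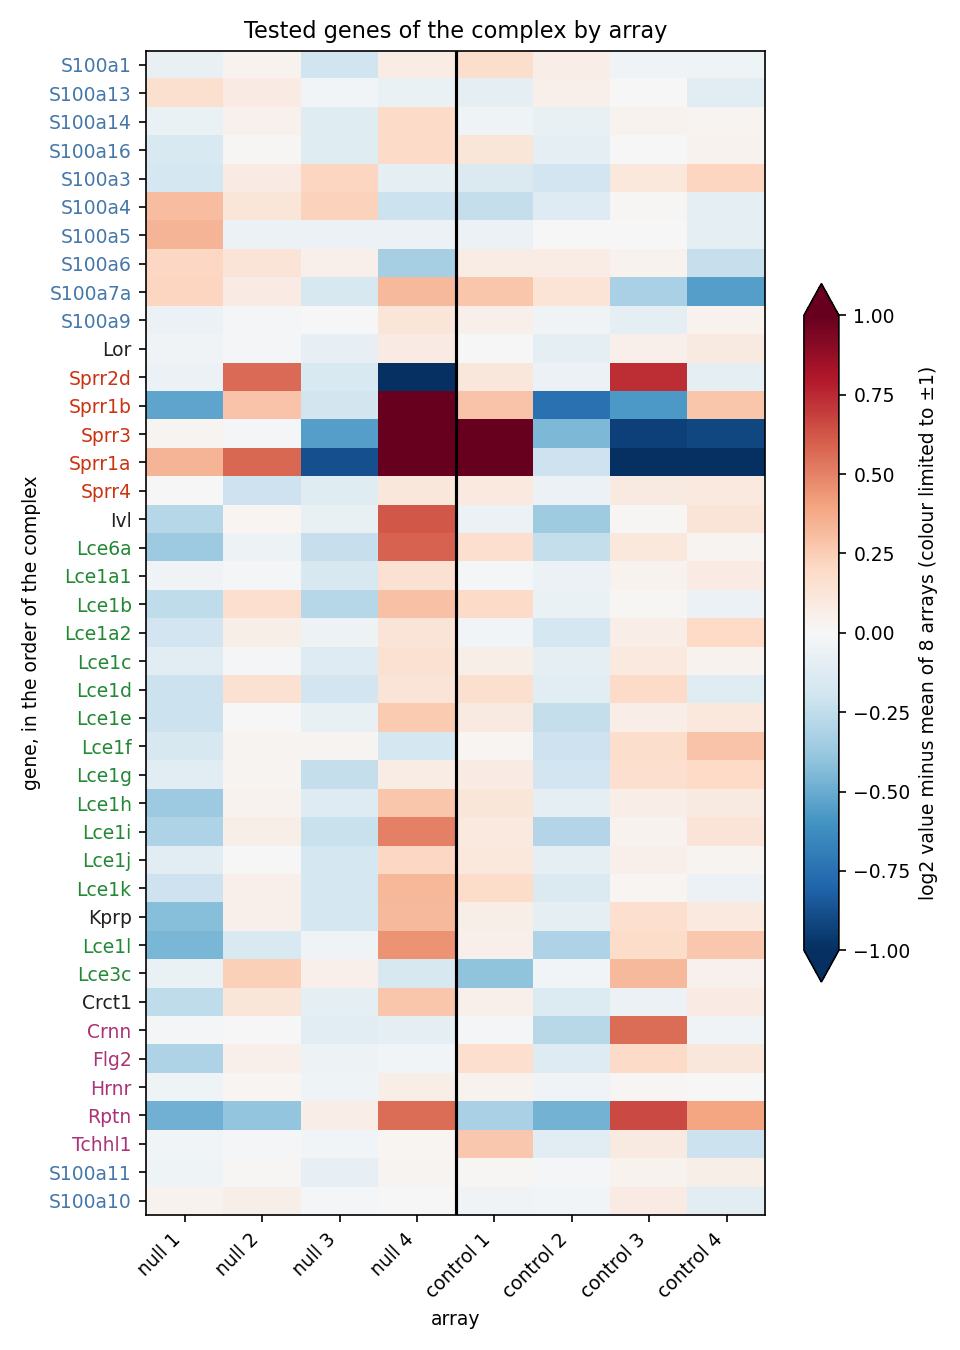
Log2 value of each of the 41 tested genes on each array minus its mean over 8 arrays, Pparg null arrays left of the line and control arrays right of it, with genes in their order along chromosome 3 and names coloured by family as in the plot of differences. Colour is limited to ±1; Sprr1a and Sprr3 are high on Pparg null array 4 and control array 1, and most Lce genes share the sign of the same array.

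Among the tested genes of the complex, Sprr1a, Sprr3, Sprr1b and Sprr2d varied most between arrays of the same group. Sprr4, also tested, did not, with a within-group SD of 0.112. Sprr proteins cross-bridge the envelope, and Sprr1 genes are also known to be raised in stressed and wounded epithelia. Sprr1a read 9.73, 9.97, 8.51 and 11.15 on Pparg null arrays and 10.83, 9.18, 7.72 and 8.03 on control arrays. The 8 values spanned 10.8-fold, with Pparg null array 4 and control array 1 the highest and control arrays 3 and 4 the lowest. The mean was 0.90 higher in Pparg null skin (SE 0.70, 95% interval -0.67 to 2.47, limma adjusted p = 0.9995; exact two-sided permutation p = 0.371, where 0.0286 is the smallest possible).

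Sprr3, known best from the esophagus and other mucosal epithelia, read 5.99, 5.95, 5.41 and 7.80 on Pparg null arrays and 6.95, 5.51, 5.03 and 5.05 on control arrays. The order of the arrays was nearly that of Sprr1a, and the difference was 0.65 (SE 0.55, 95% interval -0.57 to 1.87). On Pparg null array 3 and control arrays 2, 3 and 4 Sprr3 lay under the brightness filter (5.62 to 5.67). Its order of arrays and its difference thus rest partly on weak signal. Sprr1b read 9.53, 10.34, 9.88 and 11.25 on Pparg null arrays and 10.35, 9.32, 9.49 and 10.34 on control arrays, with a difference of 0.38 (SE 0.37). Pparg null array 4 was again the highest, while control arrays 1 and 4 were alike.

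The size of these 3 differences moved when single arrays were left out. Without Pparg null array 4, Sprr1a, Sprr3 and Sprr1b differed by 0.46, 0.15 and 0.04. Without control array 1 Sprr1a differed by 1.53 and Sprr3 by 1.09, with Sprr1a at a limma unadjusted p under 0.05. Without both arrays the differences were 1.09 for Sprr1a, 0.59 for Sprr3 and 0.20 for Sprr1b. Sprr1a and Sprr3 then had a limma unadjusted p under 0.05, but the adjusted p-values of all 3 were at least 0.986. Both arrays left out were the highest of their groups for Sprr1a and Sprr3. Leaving them out itself narrows the spread, so these unadjusted p-values are no separate evidence of a difference.

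Sprr2d had another order of arrays than Sprr1a, Sprr1b and Sprr3. It read 7.89, 8.51, 7.79 and 6.91 on Pparg null arrays and 8.06, 7.89, 8.69 and 7.85 on control arrays. Pparg null array 4, the highest for Sprr1a, Sprr1b and Sprr3, was the lowest of all 8 here, and control array 3 was the highest. The difference of -0.34 (SE 0.30, 95% interval -1.02 to 0.34) became -0.05 without Pparg null array 4. Sprr4 read 5.97, 5.77, 5.85 and 6.09 on Pparg null arrays and 6.07, 5.92, 6.07 and 6.07 on control arrays, a difference of -0.11 (SE 0.07, unadjusted p = 0.162).

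The other 8 Sprr2 genes (Sprr2b, Sprr2e to Sprr2i, the pseudogene Sprr2j-ps and Sprr2k) lay under the brightness filter. Sprr2h, with the largest within-group SD of these 8 (0.291), read 5.66, 5.75, 5.35 and 5.01 on Pparg null arrays and 5.27, 5.67, 5.82 and 5.51 on control arrays, with Pparg null array 4 again the lowest. Another row, shared by Sprr2a1, Sprr2a2, Sprr2a3 and Sprr2b and therefore no member, read 10.85 to 11.39 on Pparg null arrays and 10.91 to 11.44 on control arrays. The Sprr2 genes are near copies, so these rows may share signal.

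**Figure D3:**
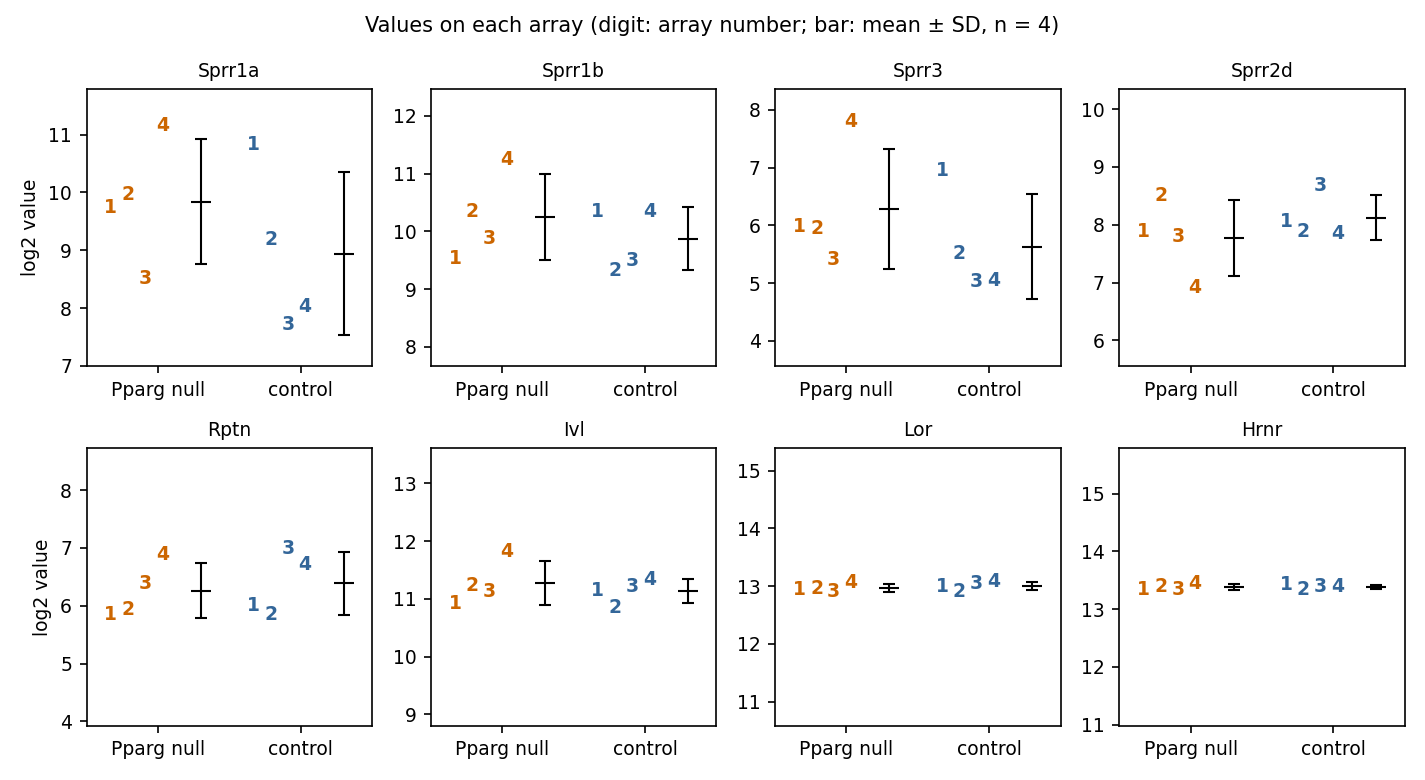
Log2 values (y axis) of 8 genes on each array, with each array shown by its number, Pparg null left and control right, and the bar giving the mean ± SD (n = 4). All panels span the same number of log2 units: Sprr1a runs from 7.72 to 11.15, while Lor stays between 12.90 and 13.07 and Hrnr between 13.34 and 13.44.

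The stretch just before the start of these genes differs between the families, and it is shown for the genes with the widest spread (Sprr1a, Sprr1b, Sprr3 and Sprr2d) and for the classical precursors Lor and Ivl. The sequences are from RefSeq (GRCm38.p6), read 5′ to 3′ on the gene's strand, and end at the base before the annotated start. They lie at chr3:92485882-92486131 (minus strand) for Sprr1a, chr3:92438780-92439029 (minus strand) for Sprr1b, chr3:92458721-92458970 (minus strand) for Sprr3, chr3:92338890-92339139 (plus strand) for Sprr2d, chr3:92083143-92083392 (minus strand) for Lor and chr3:92573736-92573985 (minus strand) for Ivl. Capitals mark TGANTCA and TATAAA, searched on both strands. TGANTCA is a loose form of the core that AP-1 factors bind, with any base allowed in the middle (A in Sprr1b). TATAAA has the letters of the TATA box, wherever in the window it stands. No match of one overlaps a match of the other.
Sprr1a: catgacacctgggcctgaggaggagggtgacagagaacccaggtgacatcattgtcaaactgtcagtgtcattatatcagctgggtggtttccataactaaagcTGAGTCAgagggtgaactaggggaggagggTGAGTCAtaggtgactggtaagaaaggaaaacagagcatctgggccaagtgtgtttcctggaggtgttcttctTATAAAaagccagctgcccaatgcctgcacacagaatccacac
Sprr1b: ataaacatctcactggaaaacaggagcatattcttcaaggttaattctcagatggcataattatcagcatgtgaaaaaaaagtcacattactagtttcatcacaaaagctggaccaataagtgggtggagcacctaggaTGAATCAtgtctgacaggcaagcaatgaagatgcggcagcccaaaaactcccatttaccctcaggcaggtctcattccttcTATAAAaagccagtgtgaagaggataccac
Sprr3: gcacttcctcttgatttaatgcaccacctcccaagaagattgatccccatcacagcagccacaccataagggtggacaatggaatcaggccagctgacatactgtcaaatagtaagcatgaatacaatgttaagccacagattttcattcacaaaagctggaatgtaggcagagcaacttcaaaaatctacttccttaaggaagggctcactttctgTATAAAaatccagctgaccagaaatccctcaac
Sprr2d: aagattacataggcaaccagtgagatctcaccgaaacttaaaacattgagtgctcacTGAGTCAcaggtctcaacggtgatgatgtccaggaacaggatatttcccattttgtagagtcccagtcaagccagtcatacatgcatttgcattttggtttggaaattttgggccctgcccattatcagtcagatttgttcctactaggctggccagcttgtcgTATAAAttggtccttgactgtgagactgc
Lor: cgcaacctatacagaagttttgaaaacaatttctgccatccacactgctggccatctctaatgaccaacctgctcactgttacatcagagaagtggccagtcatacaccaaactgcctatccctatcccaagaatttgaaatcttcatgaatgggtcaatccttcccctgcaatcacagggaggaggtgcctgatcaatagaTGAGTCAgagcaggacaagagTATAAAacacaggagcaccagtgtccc
Ivl: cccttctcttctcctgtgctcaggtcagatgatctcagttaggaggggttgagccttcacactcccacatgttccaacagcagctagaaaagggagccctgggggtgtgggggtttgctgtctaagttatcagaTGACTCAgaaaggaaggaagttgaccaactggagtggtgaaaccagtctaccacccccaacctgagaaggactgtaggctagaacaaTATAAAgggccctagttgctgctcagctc

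Of the 56 genes, 48 had such a sequence of 250 bases. TGANTCA stood in the sequences of 9 of 11 Sprr genes, 4 of 5 S100-fused-type genes, 2 of 3 other precursors, 2 of 11 S100a genes and 0 of 18 Lce genes, against 7.82% of 27025 genes in the table. In all 7 Sprr2 genes 1 copy began 193 to 198 bases before the start, and Sprr2k held another at 182. The Sprr2 genes are near copies, so their matches are not independent and weigh heavily in the Sprr count. Sprr1a carried 2 copies, 146 and 116 bases before its start, and Lor and Ivl 1 each, at 48 and 116. Sprr3, which followed Sprr1a across the arrays, held none in this window. TATAAA stood in 10 of 11 Sprr genes, all 7 Sprr2 genes among them, 3 of 5 S100-fused-type genes and 2 of 3 other precursors. It stood in 3 of 11 S100a genes and 3 of 18 Lce genes, against 14.3% of all genes, counted anywhere in the 250 bases. The Sprr matches began 29 to 43 bases before the start. Of the Lce matches, that of Lce1d began at 30, but those of Lce3e and Lce6a at 243 and 218. The direct repeat of AGGTCA with 1 base between the copies, the form of element that PPAR binds together with RXR, was in 0 of the 48 sequences and in 0.0407% of all genes, searched on both strands. These are matches of letters and say nothing of binding.

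The S100a genes lay slightly to the higher side, 9 of 12 tested above control and 3 below, with a median of 0.02. S100a4, a calcium-binding protein widely used as a fibroblast marker, had the smallest unadjusted p of the complex (0.0667). It read 7.76, 7.57, 7.68 and 7.23 on Pparg null arrays and 7.21, 7.32, 7.46 and 7.36 on control arrays. Arrays 1 to 3 of the Pparg null group lay above every control value and array 4 lay among them. The difference was 0.22 (SE 0.11, 95% interval -0.02 to 0.47, adjusted p = 0.9995), and 0.33 without Pparg null array 4 (adjusted p = 0.407). The 12 listed genes of dermal fibroblasts did not share this direction: 8 lay below control and 4 above, with a median of -0.07, and 0 passed the threshold.

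S100a7a, the mouse relative of human psoriasin, read 7.50, 7.37, 7.13 and 7.60 on Pparg null arrays and 7.56, 7.42, 6.96 and 6.73 on control arrays. Control arrays 3 and 4 were the lowest, as they were for Sprr1a and Sprr3, and the difference was 0.23 (SE 0.18), 0.09 without control array 4 and 0.36 without control array 1. S100a13, which takes part in the release of FGF1, read 8.11, 8.03, 7.92 and 7.89 on Pparg null arrays and 7.86, 8.01, 7.95 and 7.85 on control arrays, a difference of 0.07. S100a1, best known from heart and skeletal muscle, read 8.51, 8.62, 8.39 and 8.66 on Pparg null arrays and 8.76, 8.65, 8.55 and 8.54 on control arrays, a difference of -0.08.

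The annexin partners were among the steadiest genes. S100a10 read 12.45, 12.47, 12.40 and 12.42 on Pparg null arrays and 12.37, 12.38, 12.49 and 12.31 on control arrays, a difference of 0.04 (SE 0.05). S100a11 read 11.97, 12.03, 11.93 and 12.05 on Pparg null arrays and 12.03, 11.99, 12.05 and 12.07 on control arrays, a difference of -0.04 (SE 0.05). The epithelial S100a14 and S100a16 and the hair cuticle gene S100a3 differed by 0.02, -0.03 and 0.01. The neutrophil genes S100a8 and S100a9 read at most 5.04 and 5.94 on any array, and S100a8 was under the filter, as was S100a2. The 8 tested genes of the neutrophil and myeloid list had a median difference of 0.00183, with 0 past the threshold.

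Spread within the groups was larger for the complex than for most genes. The within-group SD, pooled over both groups, had a median of 0.181 over the 41 tested genes, against 0.098 over all 15174. Other epidermal lists had medians above that of the complex, at 0.314 for the periderm and oral keratins, 0.282 for suprabasal genes, 0.212 for crosslinking and filaggrin processing and 0.204 for envelope precursors encoded elsewhere, while basal genes had 0.0799. A wide spread was not particular to epidermis: skeletal muscle genes had 0.228, and inner root sheath and hair shaft genes had 0.182. Dermal fibroblast, myeloid, Schwann cell, endothelial and white adipocyte genes lay lower, between 0.0712 and 0.175. The SD exceeded the median of all genes for 35 of the 41 and their 90th percentile (0.185) for 17, and the 99th percentile (0.39) for 5, which were Sprr1a (1.26), Sprr3 (0.977), Sprr1b (0.653), Sprr2d (0.541) and Rptn (0.515). At the other end stood Hrnr (0.041) and S100a11 (0.045). By family the median SD was 0.653 for Sprr (though Sprr4 had 0.112), 0.211 for the other precursors, 0.183 for Lce, 0.153 for the S100-fused type and 0.120 for S100a. These counts are a description with no test, since genes of the complex vary together.

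**Figure D4:**
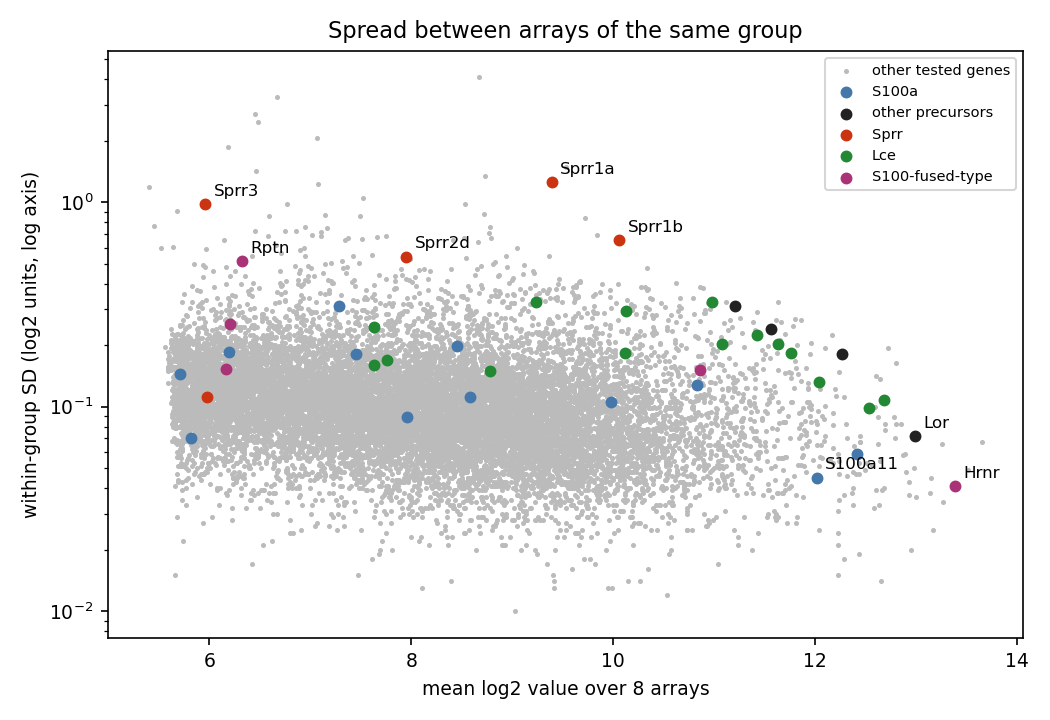
Within-group SD of each tested gene (y axis, log2 units, log scale) against its mean log2 value over 8 arrays (x axis), with the 41 genes of the complex in colour by family and other genes in grey. Sprr1a, Sprr3, Sprr1b, Sprr2d and Rptn lie above 0.5, and Hrnr lies near 0.04.

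The same arrays were high or low across much of the complex. Pparg null array 4 was the highest of its group for 70.7% of the 41 genes, against 33.9% of all tested genes, and Pparg null array 1 was the lowest for 46.3%, against 28.6%. Control array 2 was the lowest of its group for 65.9%, against 20.5% of all tested genes. Averaged over the 3 genes Sprr1a, Sprr1b and Sprr3, Pparg null arrays stood at -0.05, 0.28, -0.54 and 1.60 from the mean of 8 arrays, and control arrays at 0.91, -0.47, -1.06 and -0.67. The mean over the 12 tested S100a genes ran from -0.02 to 0.06 on Pparg null arrays and from -0.07 to 0.01 on control arrays, but its members went both ways: Pparg null array 4 was the highest of its group for 6 of the 12, S100a7a among them, and the lowest for 3, with S100a4 and S100a6 among them.

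Several keratins of periderm and mucosal epithelia ran through the arrays in nearly the order of Sprr1a and Sprr3. Krt13, a keratin of mucosal epithelia, read 7.75, 7.81, 6.88 and 9.25 on Pparg null arrays and 8.63, 7.24, 6.04 and 6.58 on control arrays, the same order of arrays as Sprr1a. Krt4, its mucosal partner, and Krt6a, a keratin of stressed epidermis and of the follicle, also had Pparg null array 4 highest, control array 1 next and control array 3 lowest. The list of 9 such keratins stood at -0.04, 0.13, -0.32 and 0.71 on Pparg null arrays and 0.45, -0.26, -0.56 and -0.11 on control arrays. Of its 9 genes, 7 lay above control and 2 below, with a median of 0.11 and 0 past the threshold. Krt16 and Krt17, keratins of stressed epidermis and of follicles, had other orders, with control array 4 the highest of all 8. Krt8 and Krt6b had Pparg null array 4 highest but control array 4 next. Krt18 and Krt19 had control array 1 highest and Pparg null array 4 next. The part of these keratins in the spread of the Sprr genes was not tested.

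Most suprabasal genes followed the same arrays, and basal genes did not. Pparg null array 4 was the highest of its group for 10 of the 11 tested suprabasal genes and for 2 of the 8 tested basal genes. The 11 tested suprabasal genes stood at -0.26, 0.02, -0.22 and 0.64 on Pparg null arrays and 0.19, -0.27, -0.10 and -0.00 on control arrays. Among them Krt77, a keratin of suprabasal skin and sweat ducts, read 8.73, 9.19, 8.66 and 12.49 on Pparg null arrays and 10.67, 8.56, 8.44 and 9.52 on control arrays. It had the largest within-group SD of the list (1.49) and weighed heavily in the list means on these 2 high arrays. Krt1 and Krt10, the main keratins of the spinous layer, stayed within 13.08 to 13.20 on all 8 arrays. The 8 tested basal genes stood between -0.05 and 0.02 on Pparg null arrays and between -0.02 and 0.06 on control arrays. The suprabasal list had 9 genes above control and 2 below with a median of 0.07, and the basal list 1 above and 7 below with a median of -0.02, with 0 past the threshold in each.

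Other cell types of full-thickness skin were read from their own lists. The 18 tested genes of the inner root sheath and hair shaft had 15 below control and 3 above, with a median of -0.15, 3 at an unadjusted p under 0.05 (3.61% over all tested genes) and 0 past the threshold. This list stood at -0.11, -0.11, 0.08 and -0.31 on Pparg null arrays and -0.11, 0.15, 0.31 and 0.11 on control arrays, with Pparg null array 4 the lowest, as it was for Sprr2d. Skeletal muscle, 10 tested, had 8 below and 2 above with a median of -0.03, Schwann cells, 4 tested, 2 below and 2 above, and endothelium, 7 tested, 4 below and 3 above, each with 0 past the threshold. Of the 8 tested white adipocyte genes, 7 lay below control with a median of -0.87, and 4 passed the threshold, all lower. The part of these cell types in the values of the complex was not tested.

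**Figure D5:**
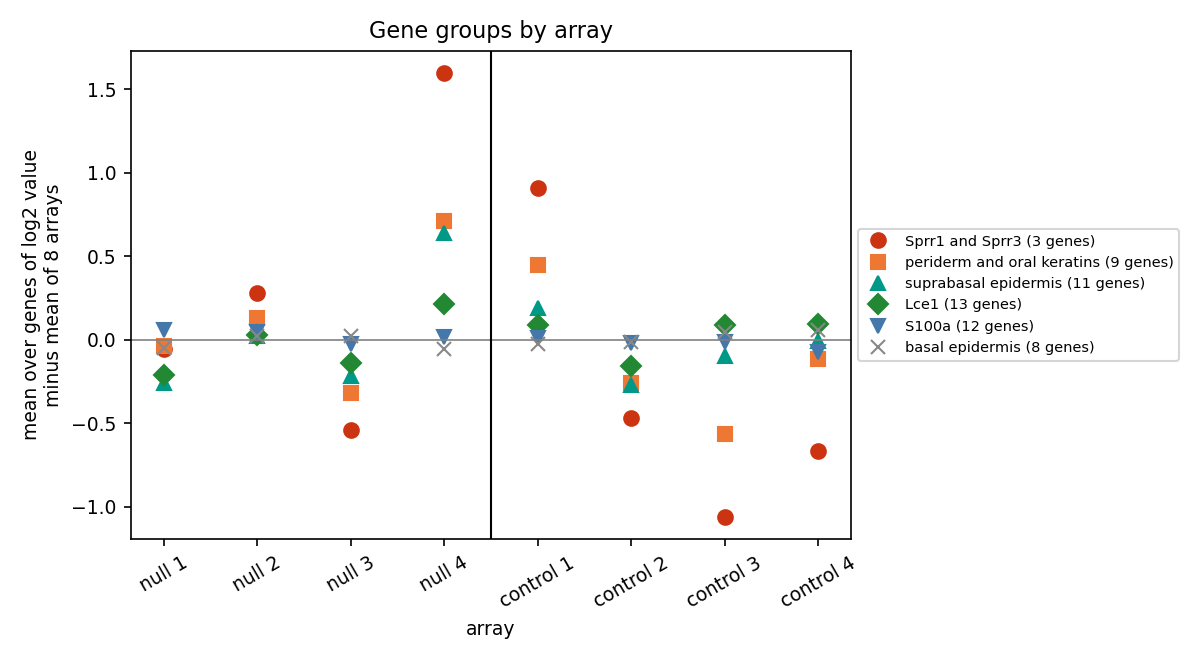
Mean over the genes of a group of the log2 value minus its mean over 8 arrays (y axis), for each array (x axis, Pparg null left of the line). The 3 Sprr1 and Sprr3 genes reach 1.60 on Pparg null array 4 and 0.91 on control array 1, the periderm and oral keratins 0.71 and 0.45 on those arrays, and the means of the S100a and basal genes stay near 0.

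None of the tested genes that act on the complex passed the threshold either, which does not show equal levels. Of the 18 tested genes that crosslink envelope proteins or process filaggrin, 8 lay below control and 10 above, with a median of 0.02 and 0 past the threshold. The transglutaminase Tgm5 had the smallest unadjusted p among them (0.0183), at 7.37, 7.62, 7.50 and 7.49 on Pparg null arrays and 7.61, 7.62, 7.71 and 7.77 on control arrays, a difference of -0.18 (SE 0.06, limma adjusted p = 0.9995). Envelope precursors encoded elsewhere, 12 tested, had 3 below and 9 above with a median of 0.04 and 0 past the threshold; Csta1, a cystatin, differed by 0.18 and Krtdap, a secreted keratinocyte protein, by 0.12.

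Of 33 tested regulators of epidermal differentiation, 21 lay below control and 12 above, with a median of -0.02 and 0 past the threshold. Fosl1, a subunit of AP-1, read 5.43, 5.63, 5.55 and 5.78 on Pparg null arrays and 5.92, 5.63, 5.79 and 5.95 on control arrays, a difference of -0.23 (SE 0.09, limma unadjusted p = 0.032, adjusted p = 0.9995). These values lie around the brightness filter (5.62 to 5.67), with Pparg null arrays 1 and 3 under it. Of the 33 regulators, 1 had an unadjusted p under 0.05, against 3.61% of all tested genes. The vitamin D receptor Vdr differed by -0.21 and the chromatin remodeller Smarca4 by -0.06.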

How the data were processed

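The deposited table held log2 values of 35556 transcript clusters on 8 Affymetrix arrays, made by the authors; the submitters' processing notes name RMA and Affymetrix Expression Console. Of versions, genome build and filters the sources used here say nothing. Per the labels' protocols, 100 ng of total RNA was amplified and 5.5 μg of cDNA labelled. RMA forces the arrays to one distribution, so a shift of all genes at once is invisible. The 4 arrays per group limit the precision.

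The platform annotation gave 1 symbol to 21789 clusters, several to 1621 and none to 12146. Of the former group, 21698 were found by gene ID in a RefSeq table (GRCm38.p6) and 91 kept their symbol. The brightest cluster stood for a gene. Differences were fitted without covariates by limma 3.58.1 (R 4.3.3, statmod 1.5.0), two-sided, with Benjamini-Hochberg adjustment over 15174 genes and a threshold of 0.05. Single values were also tested by exact permutation over 70 assignments. The fit was tested on simulated data.

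Named with values on every array are the 10 single genes found, the 4 Lce, Sprr and S100a genes each with the smallest p and the 2 brightest, and the 6 with the largest within-group SD; of other lists, up to 3 genes with the smallest p. Sprr2h, Krt6a, Krt16, Krt77, Krt1 and Krt10 were named after their values were seen. Members, lists and alternatives were chosen with earlier results of these data known. Alternatives were other filters, scalings, priors, array weights, a replicate block, other rows per gene, and arrays left out.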

Additional observations from a re-analysis of the deposited data

Results flagged for a closer look

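Among the 56 genes, 112 groups of 4 arrays were checked for 1 outlying array, and 6 held one, where chance gives about 1 in 20, or 5.6. The gap to the nearest array is given as a share of the group's range. S100a5, known from olfactory neurons, read 6.05 on Pparg null array 1 and 5.65 on the other 3 of that group (gap 1.0), and 5.65 on control array 1 as well. These values of 5.65 are identical and lie around the brightness filter (5.62 to 5.67), so this gap rests on weak signal. S100a6, known as calcyclin, read 8.23 on control array 4 and 8.49 to 8.53 on the others (gap 0.865). Sprr2e had 5.58 on array 2 of the Pparg null group, whose remaining arrays had 4.92 to 5.02 (gap 0.858). Sprr4 read 5.92 on control array 2 and 6.07 on the others (gap 0.97). Lce1e read 11.52 on control array 2 and 11.83 to 11.87 on the others (gap 0.883). Lce3a read 5.07 on control array 4 and 5.44 to 5.50 on the others (gap 0.864). Sprr2e and Lce3a did not pass the brightness filter.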

How the results depend on the processing

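The count of 0 genes of the complex past the threshold held under all 18 alternatives, with at most 3 at an unadjusted p under 0.05 (without Pparg null array 4, without control array 2, and without Pparg null array 4 and control array 1 together) and a smallest adjusted p of 0.407. Their median difference stayed between -0.08 (without Pparg null array 4) and 0.02 (without Pparg null array 1). The median of the 5 tested Sprr genes, 0.38, was -0.01 with no filter, over all 13, 0.04 without Pparg null array 4 and 0.62 without Pparg null array 1. Single differences are small against their error: 16 of 41 genes kept their sign in all alternatives, and 68 of 730 values had the other sign. The count over all genes was 18 and fell to 1 with every cluster tested on its own and to 1 with the replicate block, and ran from 3 to 15 with 1 array left out. The labels do not say whether array numbers shared between the groups mark pairs. Deviations of arrays 1, 2, 3 and 4 correlated across groups at r = -0.306, 0.204, 0.05 and -0.03, which cannot decide it with so few arrays. The replicate block changed no call within the complex.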

Other observations

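Of the rows that carry several symbols of the complex, the row shared by 6 Lce3 genes read 8.53 to 8.68 on Pparg null arrays and 8.50 to 8.67 on control arrays. A pair of rows shared by Sprr2a1 and Sprr2a3 held identical values, at 9.38, 9.83, 9.39 and 9.79 on Pparg null arrays and 10.10, 9.63, 9.62 and 9.31 on control arrays. Both rows thus ran with Pparg null array 4 near the top of its group and control array 1 at the top of its own, unlike Sprr2d.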
